A study of Drosophila melanogaster with 18 samples.

Results

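The genes examined here make, modify, cut or bind chitin, the polymer of N-acetylglucosamine in the insect cuticle and in the sheet that lines the gut. They were taken by name and not by their counts, though with earlier results of these data known. The rule took every gene whose symbol begins with Cht and a digit, Idgf, Cda, ChLD or obst-, together with kkv, Chs2, mmy, serp and verm. This gave 33 of the 17869 genes in the count table: 3 genes of chitin synthesis, 6 chitin deacetylases, 10 chitinases, 6 imaginal disc growth factor genes and 8 genes with an obst- symbol. Of these, 27 had enough counts to be tested and 6 (Cht12, obst-F, obst-G, obst-H, obst-I and obst-J) did not.

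Epithelial cells build chitin at their outer surface from UDP-N-acetylglucosamine, which is made from glucose by the hexosamine pathway. Chitin synthases link the sugar units, deacetylases remove acetyl groups from the new fibers, obstructor proteins bind and order them, and chitinases cut them. In flies the epidermis and the tracheae secrete chitin for the cuticle, part of which is still laid down in the first days of adult life, whereas the midgut secretes chitin into the peritrophic matrix that surrounds the food.

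RNA came from whole w1118 flies, a common laboratory stock with white eyes. They were taken as adults on day 0, or on day 2 after eating food that held vehicle or 1 µM cycloheximide (CHX), which blocks the elongation step of translation. Each group holds 6 libraries, 3 with a hyphen in the library name and 3 without, here called the name series. Neither the sex of the flies, nor the number per library, nor the meaning of the series is given in the labels, and separate cultures behind the libraries are not stated either, so p-values measure the spread between these libraries, which may be technical.

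Libraries held 21495631 to 38519240 counts. Levels are given as CPM, each gene's counts relative to the library total after TMM scaling, a scaling that assumes most genes to be equal between libraries. The marker genes of other cell types changed along with the groups. The 8 muscle markers, among them Mhc and Act88F, summed to 59980 to 69980 CPM at day 0 and to 63260 to 75010 with CHX, but to 1222 to 1825 CPM with vehicle, although the label is whole fly for every library. Eggshell markers went the other way, with 143.9 to 288.6 CPM at day 0, 4604 to 13880 with vehicle and 1.83 to 44.6 with CHX, and male markers were near 0 throughout, at most 7.55 CPM in sum. In whole flies, fewer cells of a type and less RNA per cell cannot be told apart.

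Between day 0 and day 2 with vehicle, most members listed below for the epidermis fell steeply, while 4 of the 5 listed for the midgut rose. In all, 17 of the 27 tested genes fell and 7 rose (edgeR, adjusted p under 0.05). Over all 11051 features tested, 41.1% fell and 41.8% rose, 82.9% in either direction, so that the number of chitin genes called lay near the share of all features. The median log2 difference of the chitin genes was -1.04, with a range from -9.48 to 3.57, and that of all features was -0.0043. In 14 of the 27 genes all vehicle libraries lay below all 12 others, and in 2 (Cda9 and Cht11) above them. The same held for 30.3% and 32.2% of all features. The split depended on the scaling: library sizes alone, which moved the median of all features by 0.49, gave 10 rises and 14 falls, and upper quartile factors, which moved it by -0.22, gave 4 rises and 17 falls.

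**Figure D1:**
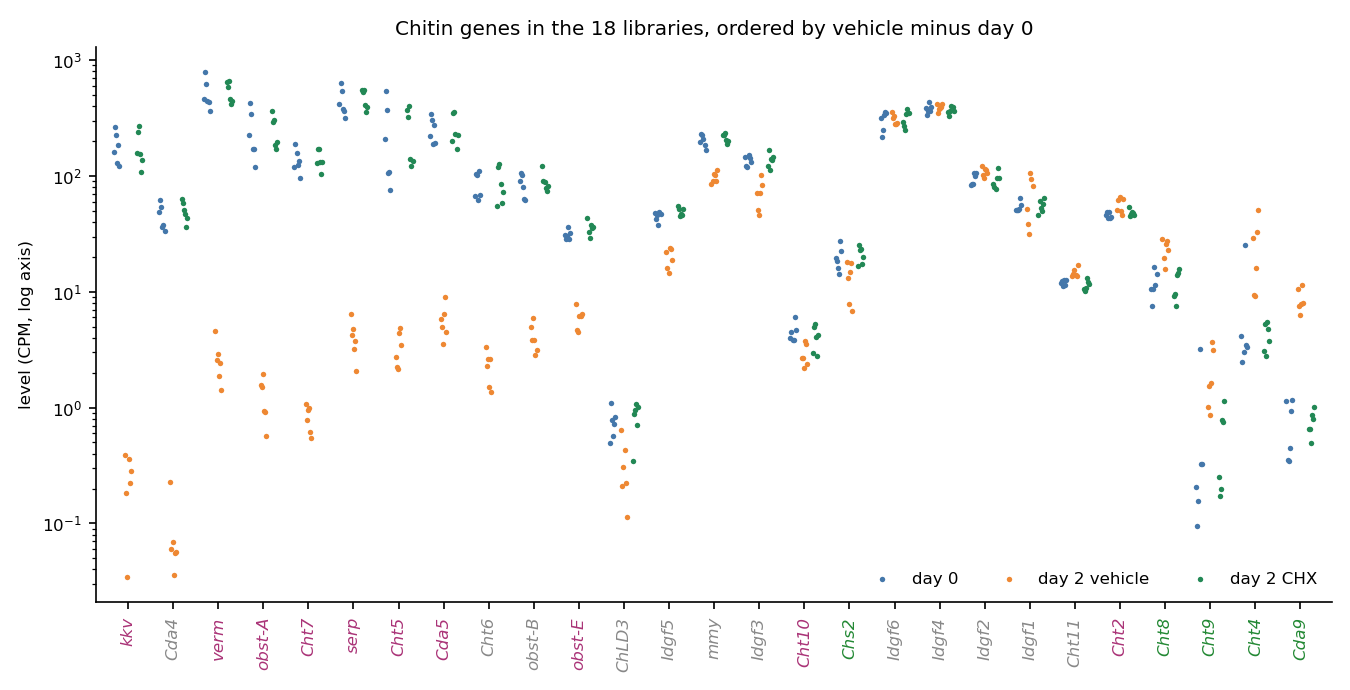
Level of each of the 27 tested chitin genes in every library, as CPM on a log axis, ordered by the difference between vehicle and day 0. Points are libraries, 6 per group (blue, day 0; orange, vehicle; green, CHX), and gene names are purple for the epidermis list, green for the gut list and gray for neither. Vehicle libraries lie far below the other groups on the left, up to obst-E, and above them for Cda9 on the right.

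The chitin synthase genes moved differently. kkv (FBgn0001311, 3R:5378093-5392866 in BDGP6) encodes the chitin synthase of epidermis and tracheae, and fell by about as much as the deacetylase gene Cda4, and more than the other members. Its level ran from 122.4 to 263 CPM at day 0 (median 173), from 0.0343 to 0.388 with vehicle (median 0.255) and from 107.6 to 268.8 with CHX (median 157). The vehicle libraries, with 47 kkv counts among them, lay below every other library by a wide margin. The log2 difference was -9.48 ± 0.31 (SE) from day 0 to vehicle, a 713-fold lower level (adjusted p = 4.2e-15), and 9.44 ± 0.31 from vehicle to CHX. Chs2 (FBgn0029091, 3L:21962401-21969964) encodes the other chitin synthase, that of the midgut, and moved little. It ran from 14.2 to 27.5 CPM at day 0 (median 18.9), 6.77 to 18.2 with vehicle (median 13.9) and 16.6 to 25.4 with CHX (median 21.6), and the groups overlapped. Its log2 difference was -0.59 ± 0.22 (adjusted p = 0.021), and it did not pass with library sizes alone (-0.10, adjusted p = 0.70), without day 0 replicate 5 (adjusted p = 0.062) or without vehicle replicate 3 (adjusted p = 0.050).

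Within a library the ratio of kkv to Chs2 counts does not depend on the scaling. It was 5.46 to 14.4 at day 0, 0.00435 to 0.0422 with vehicle and 6.21 to 11.7 with CHX. The cuticle synthase was thus the more abundant in all libraries of day 0 and CHX, and the midgut synthase in all vehicle libraries.

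mmy (FBgn0259749, 2L:6468538-6473904) encodes UDP-N-acetylglucosamine diphosphorylase, which makes the substrate of both synthases and also serves protein glycosylation. It had 202 ± 23.7 CPM at day 0 (167.0 to 228.6; SD, n = 6), 97.6 ± 10.5 with vehicle (85.1 to 112.7) and 214 ± 19.0 with CHX (187.4 to 237.4). The vehicle libraries did not overlap the others. The level fell 2.06-fold from day 0 to vehicle (log2 difference -1.04 ± 0.09, adjusted p = 2.51e-09).

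Of the 6 deacetylases, 5 fell and Cda9 rose from day 0 to vehicle, beside 41.1% and 41.8% of all features. serp and verm encode deacetylases that are known to set the length of tracheal tubes, and lie next to each other on 3L (verm at 19690033-19695260, serp at 19700977-19708015). verm ran from 362.4 to 786.9 CPM at day 0 (median 455), 1.43 to 4.62 with vehicle (median 2.49) and 420.4 to 657.9 with CHX (median 528). serp ran from 316.1 to 635.4 CPM (median 399.6), 2.09 to 6.40 (median 4.0) and 356.0 to 555.4 (median 470.1) in the same order. In both genes vehicle lay below all other libraries, and day 0 and CHX overlapped. The log2 differences from day 0 to vehicle were -7.64 ± 0.19 for verm (adjusted p = 3.85e-17) and -6.78 ± 0.16 for serp (adjusted p = 2.44e-17). The pair kept a narrow ratio within each group: serp had 0.808 to 0.908 times the counts of verm at day 0 and 0.844 to 0.898 with CHX, but 1.39 to 1.71 times with vehicle.

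Cda5 and Cda4 are further deacetylases. Cda5 had 189.5 to 346.3 CPM at day 0, 3.53 to 8.99 with vehicle and 171.3 to 359.2 with CHX. Cda4 had 33.4 to 62.7 CPM at day 0, 0.0357 to 0.226 with vehicle and 36.6 to 62.7 with CHX. Vehicle stood below the other groups without overlap in both. Their log2 differences from day 0 to vehicle were -5.45 ± 0.27 and -9.01 ± 0.19, and the Cda4 level with vehicle rests on 16 counts over 6 libraries. ChLD3, whose exons share 296 bases with LSm7 on the opposite strand, was low throughout, with medians of 0.745, 0.266 and 0.920 CPM, and its groups overlapped. It fell by 1.23 ± 0.35 on the log2 scale from day 0 to vehicle (adjusted p = 0.0036), a call that was lost with library sizes alone (adjusted p = 0.061).

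Cda9 (FBgn0034197, 2R:17128480-17130334), a deacetylase gene of the gut, was the only deacetylase that rose. It ran from 0.349 to 1.15 CPM at day 0 (median 0.698), 6.34 to 11.5 with vehicle (median 7.90) and 0.494 to 1.01 with CHX (median 0.730). All 6 vehicle libraries lay above the other 12. The level was 11.9-fold higher with vehicle than at day 0 (log2 difference 3.57 ± 0.27, adjusted p = 3.05e-10), the largest rise among the members.

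Of the 9 tested chitinases, 4 fell and 5 rose from day 0 to vehicle, beside 41.1% and 41.8% of all features. Cht5, Cht7 and Cht10 represent chitinase groups that in other insects act on the cuticle, and Cht5 is the main molting chitinase there. Cht5 (3R:13767549-13770732) ran from 75.2 to 538.6 CPM at day 0 (median 158), 2.16 to 4.87 with vehicle (median 3.09) and 121.4 to 402.3 with CHX (median 232), which made it the most variable of the abundant members. It fell by 5.75 ± 0.48 on the log2 scale (adjusted p = 7.9e-09). Cht7 (3L:3090985-3106958), with 96.0 to 187.4 CPM at day 0, 0.543 to 1.07 with vehicle and 104.3 to 172.6 with CHX, varied less and fell by 7.37 ± 0.18. In both, vehicle lay below all other libraries.

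Cht6, a large gene with 16205 bases of exon, fell by 5.25 ± 0.26, from 62.7 to 111.2 CPM at day 0 to 1.37 to 3.33 with vehicle, and had 55.4 to 126.9 CPM with CHX. Part of its exons (521 bases) lies opposite an antisense RNA. Cht10 was low in every group, with 4.47 ± 0.85, 2.87 ± 0.63 and 4.07 ± 1.02 CPM (SD, n = 6). It passed from day 0 to vehicle (log2 difference -0.64 ± 0.19, adjusted p = 0.0037), but not with library sizes alone (-0.15, adjusted p = 0.51), where the difference from vehicle to CHX turned from 0.52 to -0.02.

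Cht2 and Cht11 moved little and upward. Cht2, which is known to act in the larval cuticle, had 43.2 to 49.1 CPM at day 0, 46.2 to 65.6 with vehicle and 45.4 to 53.7 with CHX, and the groups overlapped. Cht11 had 11.3 to 12.7 CPM at day 0, 13.6 to 16.9 with vehicle and 10.2 to 13.2 with CHX, and vehicle lay above all others. The log2 differences of 0.30 ± 0.09 and 0.28 ± 0.08 passed with TMM (adjusted p = 0.0031 and 0.0043) but not with upper quartile factors (0.08 and 0.06). With those factors the Cht2 difference from vehicle to CHX turned from -0.22 to 0.02.

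Cht8, Cht12, Cht4 and Cht9 lie side by side on 2R, between 21061646 and 21069286, and the tested 3 are chitinases of the midgut. All 3 rose. Cht4 ran from 2.46 to 25.5 CPM at day 0 (median 3.38), 9.25 to 51.0 with vehicle (median 22.5) and 2.80 to 5.45 with CHX (median 4.30). Cht9 ran from 0.0958 to 3.20 (median 0.265), 0.857 to 3.67 (median 1.59) and 0.171 to 1.15 CPM (median 0.504), and Cht8 from 7.60 to 16.5 (median 11.1), 15.6 to 28.6 (median 24.4) and 7.48 to 15.7 CPM (median 11.8). Day 0 and vehicle overlapped in each of the 3, through day 0 replicate 4 alone. The other day 0 libraries lay below all vehicle libraries, for Cht8 with at most 14.1 CPM.

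The log2 differences from day 0 to vehicle were 1.92 ± 0.51 for Cht4 (adjusted p = 0.0024), 1.80 ± 0.49 for Cht9 (adjusted p = 0.0025) and 1.01 ± 0.15 for Cht8 (adjusted p = 3.18e-06). Day 0 replicate 4 decided the size of the first 2: it had 25.5 CPM of Cht4, against at most 4.16 in the other day 0 libraries, and 3.20 CPM of Cht9, against at most 0.326. Without it the log2 differences were 2.77 for Cht4 (adjusted p = 2.85e-06) and 3.01 for Cht9 (adjusted p = 7.94e-08). Most of the Cht9 exons (893 bases) lie opposite an antisense RNA, and Cht8 shares 35 bases with Cht12. Whether the counting used strand is not stated, so reads of overlapping genes cannot be told apart. Cht12, with at most 1.10 CPM, was not tested.

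The imaginal disc growth factors are chitinase-like secreted proteins that have lost the catalytic activity, and were found through their effect on the growth of cultured disc cells. They are known in fat body, blood cells and other tissues. As a family they stayed at nearly the same summed level after TMM scaling. The sum was 1014 ± 104.5 CPM in day 0 libraries, 967 ± 68.4 in vehicle libraries and 1017 ± 89.4 in CHX libraries (SD, n = 6). This depends on the scaling, whose factors were 0.892 to 0.916 at day 0 and 1.24 to 1.31 with vehicle. With library sizes alone the vehicle sum would stand higher beside the other groups. Their share of all chitin gene CPM averaged 29.5 ± 7.64% in day 0, 77.9 ± 0.99% in vehicle and 28.4 ± 6.28% in CHX libraries.

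Summed hemocyte markers stood at 493.5 ± 45.8, 347.9 ± 36.3 and 486.4 ± 80.1 CPM in these groups, with 5 of 8 lower in vehicle than in day 0 flies. Summed fat body markers stood at 9107 ± 2505, 17550 ± 7263 and 9409 ± 2230 CPM, with 3 of 8 higher and 3 lower. Among all features 41.1% fell and 41.8% rose. The part of these markers in the Idgf levels was not tested.

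Within the family the members moved apart. Idgf4 and Idgf6 were the most abundant, with 380 ± 32.6, 391 ± 28.2 and 369 ± 27.5 CPM for Idgf4 and 304 ± 56.1, 308 ± 30.8 and 314 ± 51.8 CPM for Idgf6 at day 0, with vehicle and with CHX. Neither passed the test from day 0 to vehicle (log2 differences 0.04 ± 0.07 and 0.04 ± 0.12, adjusted p = 0.57 and 0.76), and the sign of both turned with the scaling. For Idgf6 the value averages opposite differences of the name series, 0.35 in the hyphenated (adjusted p = 0.048) and -0.30 in the other (adjusted p = 0.011), each past the threshold. Idgf4 shares 64 bases of exon with a transposon insertion on the same strand.

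Idgf1, Idgf2 and Idgf3 are neighbors on 2L (16445278-16455194) and differed from each other. Idgf3 ran from 119.8 to 153.1 CPM at day 0 (median 138.5), 45.9 to 102.1 with vehicle (median 71.7) and 111.7 to 166.9 with CHX (median 137.8). Vehicle lay below all others after TMM scaling only. Relative to library totals, vehicle replicate 5 (3649 of 27217129 counts) stood above day 0 replicate 3 (3091 of 28439091). Idgf3 fell by 0.96 ± 0.14 on the log2 scale (adjusted p = 2.43e-06). Idgf2, next to it, had 84.1 to 106.2 CPM at day 0, 96.2 to 121.7 with vehicle and 77.9 to 117.3 with CHX, and its log2 difference of 0.23 ± 0.08 (adjusted p = 0.013) was lost with upper quartile factors (0.01). The ratio of Idgf3 to Idgf2 counts in a library was 1.26 to 1.72 at day 0, 0.477 to 0.898 with vehicle and 1.16 to 2.06 with CHX, without overlap of vehicle and the rest. Idgf1, the third of the row, did not pass (0.23 ± 0.18, adjusted p = 0.25) and had the widest spread with vehicle, 31.3 to 105.1 CPM.

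Idgf5 had 37.4 to 48.7 CPM at day 0, 14.7 to 24.1 with vehicle and 44.9 to 54.8 with CHX. It fell by 1.18 ± 0.11 on the log2 scale (adjusted p = 1.19e-08), and vehicle lay below all others. Of the 6 Idgf genes, 2 thus fell, 1 rose and 3 did not pass, beside falls in 41.1% and rises in 41.8% of all features. With library sizes alone those 3 passed as well, at 0.73 for Idgf1, 0.54 for Idgf4 and 0.53 for Idgf6.

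The obstructor genes encode secreted proteins with chitin-binding domains. obst-A, which is known to order the chitin matrix and to guide the deacetylases to it, ran from 120.0 to 425.9 CPM at day 0 (median 198), 0.571 to 1.95 with vehicle (median 1.22) and 171.0 to 361.6 with CHX (median 244). obst-B ran from 62.0 to 106.7, 2.86 to 5.93 and 73.9 to 122.5 CPM, and obst-E, known for the shape of the pupal body, from 28.7 to 36.1, 4.46 to 7.92 and 29.0 to 43.5 CPM. All 3 were lower in every vehicle library than in any other, as were 30.3% of all features. The falls differed in size, with log2 differences of -7.60 ± 0.19 for obst-A, -4.36 ± 0.13 for obst-B and -2.39 ± 0.13 for obst-E (adjusted p of 2.67e-12 or lower).

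The other 5 genes with an obst- symbol were at or near 0. obst-G and obst-I had 0 counts in all 18 libraries. obst-F, obst-H and obst-J stayed at or below 0.572 CPM in every library and were not tested.

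**Figure D2:**
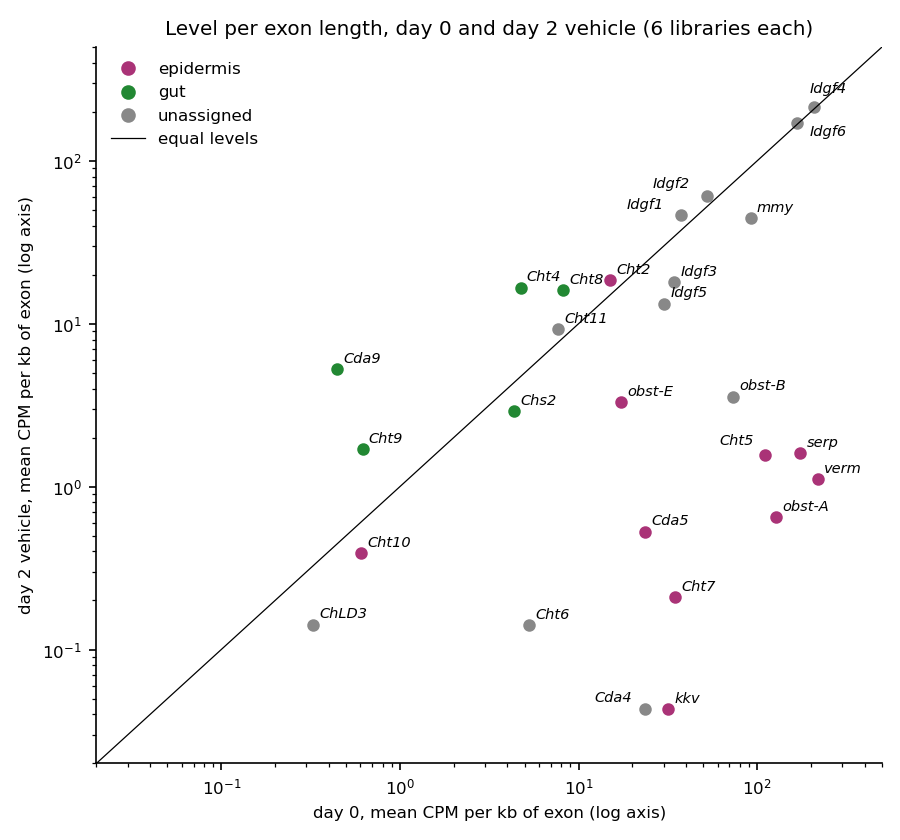
Mean level per kb of exon at day 0 (x axis) and with vehicle (y axis) for the 27 tested genes, both on log axes, with a line of equal levels. Idgf4 and Idgf6 lie near the line at the top, and Cda9, Cht9, Cht4 and Cht8 above it. Most genes of the epidermis list lie far below it at the right. Of that list, Cht2 lies slightly above the line (15.05 and 18.6 CPM per kb) and Cht10 slightly below it (0.606 and 0.389).

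Per kb of exon, the order of the genes turned over. At day 0 the highest means were verm with 219 CPM per kb, Idgf4 with 207, serp with 175 and Idgf6 with 168, whose ranges overlapped. The order of the first 2 was not stable: Idgf4 was above verm in 4 of the 6 day 0 libraries and in its median (205 against 192). With vehicle they were Idgf4 with 213, Idgf6 with 170, Idgf2 with 61.0 and Idgf1 with 46.4, and serp, verm and obst-A had 1.60, 1.11 and 0.651 CPM per kb. With CHX the means were verm at 227, Idgf4 at 201, serp at 184 and Idgf6 at 173, and Idgf4 was above verm in 3 of 6 libraries.

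Members were grouped by tissue, from general knowledge of the fly and of related chitinases in other insects. This listed 10 as genes of the epidermis and tracheae and 5 as genes of the midgut. Both lists were made with earlier results of these data known, so the split between them is not an independent test. The epidermis list consists of kkv, serp, verm, Cda5, Cht2, Cht5, Cht7, Cht10, obst-A and obst-E, and the gut list of Chs2, Cda9, Cht4, Cht8 and Cht9. From day 0 to vehicle 9 of the 10 epidermis genes fell and Cht2 rose. Of the 5 gut genes 4 rose and Chs2 fell. The shares over all features were 41.1% for falls and 41.8% for rises. The median log2 difference was -6.27 for the epidermis list and 1.80 for the gut list. The latter is the value of Cht9: without day 0 replicate 4 the gut median was 2.77, and it was 2.31 in the hyphenated and 1.17 in the other series, against -7.0 and -5.96 for the epidermis list. The calls of Cht2, Cht10 and Chs2, the smallest differences of both lists, were lost under other scalings.

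**Figure D3:**
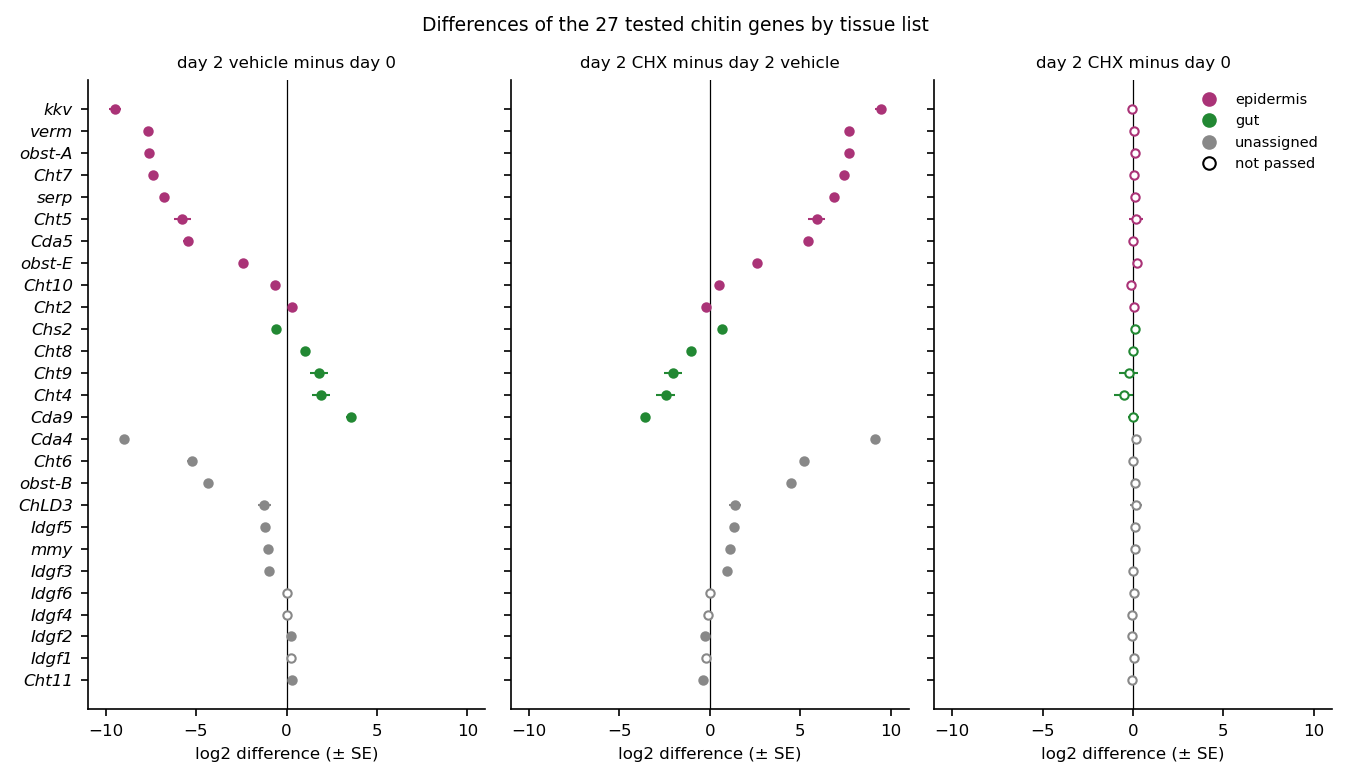
Log2 differences (± SE, edgeR) of the 27 tested genes in the 3 comparisons, grouped by tissue list; filled points passed an adjusted p of 0.05 and open points did not. For vehicle minus day 0 the epidermis genes other than Cht2 lie to the left of 0 and the gut genes other than Chs2 to the right, for CHX minus vehicle they lie on the opposite sides (Cht2 and Cht10 change sides there under other scalings), and no gene passed for CHX minus day 0.

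Summed over the lists, the epidermis genes had 1365 to 3266 CPM at day 0, 77.6 to 88.5 with vehicle and 1539 to 2804 with CHX, and vehicle did not overlap the rest. The gut genes had 28.8 to 59.8, 39.9 to 93.0 and 29.8 to 44.4 CPM, with overlap. Within a library the epidermis genes had 27.3 to 113 times the CPM of the gut genes at day 0, 0.835 to 2.22 times with vehicle and 40.3 to 84.6 times with CHX. Markers of the same tissues were read beside them. All 4 tracheal markers (trh, btl, uif and vvl) fell, from a sum of 234.8 to 393.9 CPM at day 0 to 25.5 to 45.4 with vehicle, and had 225.4 to 425.1 with CHX. Of 13 tested gut markers, mostly digestive enzymes, 6 rose and 4 fell, not far from the shares of 41.8% and 41.1% over all features, and their sum was 2523 to 4707, 4433 to 13080 and 2563 to 5550 CPM. Their part in the result was not tested, nor was that of the muscle and eggshell markers above.

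Of the 12 tested genes on neither list, 7 fell, 2 rose and 3 did not pass, beside falls in 41.1% and rises in 41.8% of all features. The falls of Cda4, Cht6 and obst-B were of the size of those of the epidermis list.

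With CHX the chitin genes stood near their day 0 levels. From vehicle to CHX 17 of the 27 rose and 7 fell, beside 42% and 41.3% of all features and 83.4% in either direction. Library sizes alone gave 15 rises and 10 falls, and upper quartile factors 17 rises and 4 falls. The comparisons share the vehicle libraries, so their values are set side by side only. verm was 200-fold lower with vehicle than at day 0 and 209-fold higher with CHX than with vehicle, obst-A 194-fold and 208-fold, Cht7 166-fold and 170-fold, and serp 110-fold and 117-fold. Among the gut genes, Cda9 was 11.9-fold higher with vehicle than at day 0 and 11.8-fold lower with CHX than with vehicle, and Cht4 3.77-fold and 5.36-fold.

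Between CHX and day 0 none of the 27 genes passed (edgeR), beside 0.552% of all features. None had an unadjusted p under 0.05, beside 537 of the 11051 features tested. DESeq2 and limma-voom also called 0, beside 125 and 22 of all features. The absence of calls is thus not particular to these genes. The log2 differences ran from -0.51 ± 0.52 for Cht4 to 0.20 ± 0.12 for obst-E. The libraries of the 2 groups overlapped in all 27. Overlap was not counted over all features, so it cannot be read as particular to these genes. The precision differed by gene: the standard error was 0.07 for Idgf4, 0.13 for serp and 0.19 for kkv. It was largest for Cht9 (0.54), Cht4 (0.52) and Cht5 (0.38), so that a change of moderate size in these could not be seen.

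The genes around chitin synthesis were read from lists chosen by role. Of 8 genes that lead from trehalose, the blood sugar of insects, to the substrate of mmy, 6 fell, nst rose and Gfat2 did not pass from day 0 to vehicle. Falls made up 41.1% and rises 41.8% of all features. Gfat1, which encodes the rate-limiting enzyme of the hexosamine pathway, had the largest change, from 164.1 to 281.1 CPM at day 0 to 20.3 to 34.0 with vehicle, and 174.3 to 257.7 with CHX (log2 difference -2.96 ± 0.16, adjusted p = 2.31e-12). Its paralog Gfat2 had 27.9 to 39.1, 29.1 to 47.0 and 28.3 to 37.7 CPM (0.19 ± 0.09, adjusted p = 0.063). Smaller falls were seen in Treh (-0.41), Hex-A (-1.03), Hex-C (-2.05), Pgi (-1.40) and Gnpnat (-1.37), whereas nst, between Gnpnat and mmy, rose by 0.63 ± 0.07. No gene of the list passed between CHX and day 0, beside 0.552% of all features. For these lists only the values with TMM scaling are given, and differences under 0.49 are smaller than the shift between scalings.

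**Figure D4:**
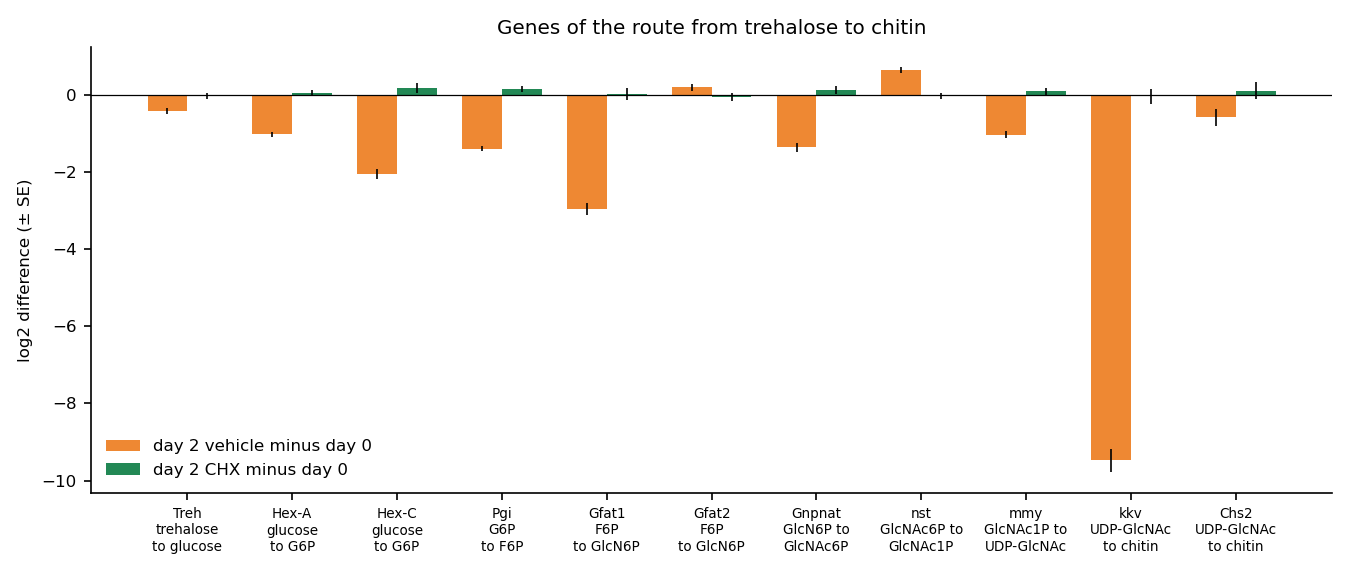
Log2 differences (bars, ± SE, edgeR) of the genes along the route from trehalose to chitin, for vehicle minus day 0 (orange) and CHX minus day 0 (green). kkv reaches -9.48 and Gfat1 -2.96 with vehicle, and the green bars stay close to 0.

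Of 8 matched genes whose products place, protect or order new chitin, 7 fell from day 0 to vehicle, beside 41.1% of all features. Duox, an oxidase, rose by 0.65 ± 0.13. Gasp, a tracheal chitin-binding protein, ran from 541.6 to 1009 CPM at day 0, 4.80 to 6.86 with vehicle and 641.2 to 922.2 with CHX (log2 difference -6.94 ± 0.17). reb and exp, which are needed for kkv to deposit chitin, fell by 7.0 ± 0.29 and 5.90 ± 0.15, and knk, which protects new chitin, by 5.01 ± 0.34. The median of the list was -4.05.

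Of 10 genes listed for the peritrophic matrix, 6 were tested. Among these 3 fell and 2 rose, near the shares of 41.1% and 41.8% over all features. Whether their products act in the gut, that of Peritrophin-A included, was not tested. Peritrophin-A fell by 6.48 ± 0.17, from 48.9 to 62.9 CPM to 0.314 to 1.04 CPM, and Mur29B rose by 1.67 ± 0.47. Of 3 hexosaminidases, which act on the ends of chitin chains, fdl rose by 0.67 ± 0.13, and Hexo1 and Hexo2 did not pass (-0.17 ± 0.09 and -0.17 ± 0.16). Of 6 transcription factors of cuticle formation, grh (-2.70 ± 0.17), Blimp-1, Hr3 and Hr4 fell, ftz-f1 rose by 0.85 ± 0.09 and Hr39 did not pass (0.04 ± 0.12). The shares of all features to set beside these counts are the same 41.1% and 41.8%. In none of these lists did a gene pass between CHX and day 0, beside 0.552% of all features.

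The name series were compared because the labels leave their meaning open. From day 0 to vehicle 22 of the 27 genes passed in the hyphenated series alone, beside 76.9% of all features, and 19 in the other, beside 75.5%. The log2 difference was -10.02 and -8.98 for kkv, -8.81 and -9.35 for Cda4, -7.53 and -7.77 for verm, 3.76 and 3.39 for Cda9 and -0.46 and -0.72 for Chs2, and the last passed in neither. Cht4 and Cht9 rose in the hyphenated series (2.31 and 2.90) and did not pass in the other (1.65 and 1.17), which holds day 0 replicate 4.

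The age difference itself differed between the series in 3 of the 27 genes, beside 3.41% of all features, and the CHX difference in the same 3, beside 3.57%: Cht5, Idgf1 and Idgf6. Both comparisons share the vehicle libraries. Cht5 ran from 209.1 to 538.6 CPM in the hyphenated and from 75.2 to 107.4 in the other libraries at day 0, and from 325.7 to 402.3 against 121.4 to 139.0 with CHX. With vehicle the order was the opposite, 2.16 to 2.72 against 3.46 to 4.87 CPM, and in no group did the series overlap. The fall from day 0 to vehicle was 2.79 ± 0.37 log2 units larger in the hyphenated series (adjusted p = 0.00031). The rise from vehicle to CHX was 2.31 ± 0.37 larger (adjusted p = 0.0015).

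In Idgf1 the series stood apart with vehicle, and in Idgf6 their order turned over. Idgf1 had 31.3 to 51.7 CPM in the hyphenated and 81.4 to 105.1 in the other vehicle libraries, whereas its day 0 libraries lay between 50.4 and 64.2 and its CHX libraries between 45.9 and 64.3 CPM. The age differences, -0.32 and 0.70 on the log2 scale, differed by -1.03 ± 0.23 (adjusted p = 0.017), and the CHX differences by 1.12 ± 0.23 (adjusted p = 0.0096). Idgf6 was lower in the hyphenated series at day 0 and with CHX (218.9 to 315.3 against 337.8 to 354.1, and 248.1 to 293.9 against 345.6 to 381.2 CPM) and higher with vehicle (318.4 to 356.2 against 281.3 to 284.8). Its differences of 0.65 ± 0.17 (adjusted p = 0.040) and -0.65 ± 0.17 (adjusted p = 0.039) were lost in 15 and 12 of 18 fits with 1 library left out, and that of Idgf1 with age in 1 fit (adjusted p = 0.050).

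**Figure D5:**
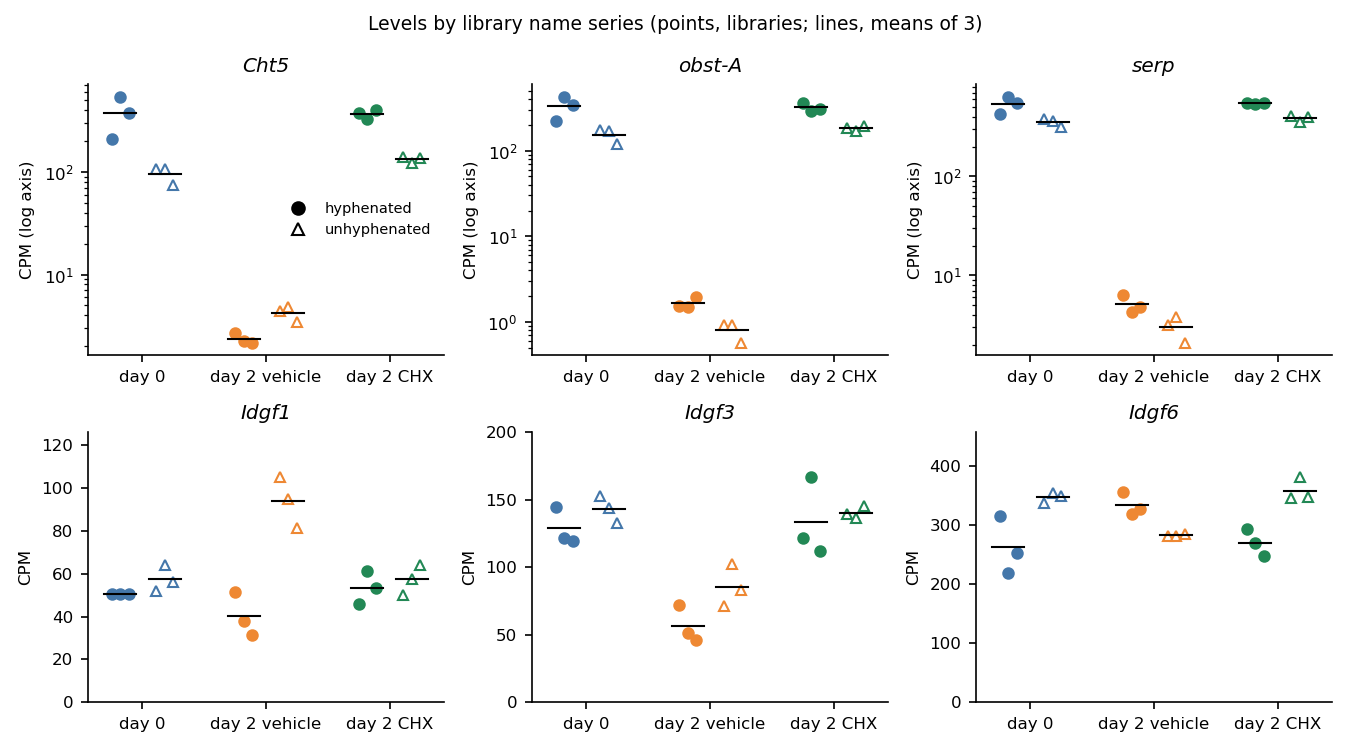
Levels (CPM) of 6 chitin genes by group and name series; filled circles are hyphenated and open triangles unhyphenated libraries, and lines are means of 3. The upper row has log axes. Cht5 is higher in the hyphenated libraries at day 0 and with CHX and lower with vehicle, and Idgf1 separates with vehicle.

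Within the groups the series differed in 2 genes at day 0 (Cht5 and obst-A), 4 with vehicle (Idgf1, Idgf3, obst-A and serp) and 1 with CHX (Cht5). The shares of all features were 0.489%, 6.28% and 0.299%. obst-A was higher in the hyphenated libraries in each group, 223.9 to 425.9 against 120.0 to 172.4 CPM at day 0, 1.51 to 1.95 against 0.571 to 0.929 with vehicle and 292.1 to 361.6 against 171.0 to 196.2 with CHX. Its fall with age was nearly the same in both series (-7.62 and -7.58). Idgf3 was lower in the hyphenated vehicle libraries by 0.60 ± 0.17 on the log2 scale (adjusted p = 0.047) and serp higher by 0.77 ± 0.20 (adjusted p = 0.030). With 1 library left out, these calls were lost in 3 of 18 fits for obst-A at day 0, 6 for obst-A and 12 for Idgf3 with vehicle, 3 for serp and 4 for Cht5 with CHX, and for Cht5 at day 0 and Idgf1 with vehicle in 0.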

How the data were processed

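The report covers 18 whole-fly RNA libraries, grouped and numbered by their labels. The values deposited by the authors are raw counts of reads per gene or other feature, and 0 sample columns were left unused. The processing notes of the submitters list the tools bcl2fastq (2.18.0.12), STAR (2.7.10a) and HTSeq (0.12.3) with build BDGP6, and neither settings nor annotation are stated. Summary rows that name no gene (8.46% to 11.6% of a column, median 10.5%) were dropped. Ensembl release 115 (BDGP6.54) gave symbols for 23851 of 23932 features, positions and exon lengths.

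The counts were tested with edgeR 4.0.16 (R 4.3.3) after filterByExpr and TMM scaling, whose factors were 0.892 to 0.916 at day 0, 1.24 to 1.31 with vehicle and 0.823 to 0.929 with CHX. A robust quasi-likelihood model took in all libraries and held the group and the name series, or their interaction, and p-values were adjusted by Benjamini-Hochberg over 11051 features. The SE is the absolute log2 difference divided by the square root of F. Scripts were tested on simulated data. As alternatives, other scalings, filters and thresholds, DESeq2 1.42.0, limma-voom (limma 3.58.1), fits of the compared groups only, fits without the series term, each series alone, removal of the 20 most abundant genes, a replicate block and removal of each library were run. Libraries of a group differed by more than sampling noise (chi-square per degree of freedom of at least 11.3).

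Members, tissue lists, pathway lists and markers were chosen with earlier results of these data known. By the rule for named genes, values in every group are given for the tissue lists, mmy, the Idgf genes and the 3 other members with the largest rise and fall, and any member or pathway gene may be named. Of 102 other listed symbols, 2 (dp and alas) matched no row. Plots were made in matplotlib 3.10.9 under Python 3.11.15.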

Additional observations from a re-analysis of the deposited data

Results flagged for a closer look

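Of 81 sets of 6 libraries (27 genes in 3 groups), 4 held a library far from the others, where chance gives about 1 in 20. These were Cda4 in vehicle replicate 1 (0.226 CPM), Cht4 and Cht9 in day 0 replicate 4 (25.5 and 3.20 CPM) and obst-B in CHX replicate 1 (122.5 CPM). Without that library the log2 difference from day 0 to vehicle was -9.49 for Cda4, 2.77 for Cht4 and 3.01 for Cht9, and the difference from vehicle to CHX was 4.42 for obst-B.

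The difference from day 0 to vehicle was itself unequal in the name series for Cht5 (-2.79 on the log2 scale, hyphenated minus the other), Idgf1 (-1.03) and Idgf6 (0.65), as was that from vehicle to CHX (2.31, 1.12 and -0.65). The interaction was tested in edgeR, and what the series stand for cannot be told from the labels.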

How the results depend on the processing

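The counts of chitin genes called ran from 18 to 25 (day 0 to vehicle) and from 17 to 25 (vehicle to CHX) over all alternatives, from 23 to 24 without 1 library, and stayed at 0 between CHX and day 0. Not every pair of same-numbered libraries deviated together (correlations from -0.29 to 0.545), and the labels give the numbers no shared origin. With the replicate number as a block 24, 24 and 0 genes were called. Counts tied to the name series were less stable. At an adjusted p under 0.01 the age difference was unequal in 1 gene, and the series differed in 1 gene at day 0, 1 with vehicle and 0 with CHX. DESeq2 gave 6, 7 and 2 for the 3 groups, and upper quartile factors 2 with vehicle. Without 1 library these counts ran from 1 to 3 (age), 2 to 4 (CHX effect), 1 to 3 (day 0), 1 to 6 (vehicle) and 0 to 3 (CHX). The cause was not tested.

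Signs turned only for small differences. From day 0 to vehicle, Idgf1 was -0.32 in the hyphenated series alone. Idgf4 was -0.0019 with RLE factors and with DESeq2, -0.18 with upper quartile factors, -0.051 with at least 10 counts in every library and -0.022 with only the groups compared. Idgf6 was -0.0077, -0.0077, -0.18, -0.056 and -0.038 in the same order, -0.30 in the unhyphenated series, and -0.036 to 0.094 without 1 library. From vehicle to CHX, upper quartile factors turned Cht2 (0.015), Idgf1 (0.034) and Idgf4 (0.15), library sizes alone turned Cht10 (-0.019) and Idgf6 (-0.54), at least 10 counts in every library turned Idgf4 (0.011), and no filter beyond 1 count turned Idgf6 (-0.030). In the hyphenated series Idgf1 was 0.40 and Idgf6 -0.31, and without 1 library Idgf6 ran from -0.049 to 0.070. Levels of kkv and Cda4 with vehicle rest on 47 and 16 counts, which limits the precision of their fold changes.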

Other observations

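Cht12, not tested, had 46 counts over the day 0 libraries, 12 over the vehicle libraries and 1 over the CHX libraries. Day 0 replicate 1 had the highest level, 1.10 CPM from 27 counts, and also the highest sum of the male markers, 7.55 CPM. A link of Cht12 with the male markers was not tested.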
